A study of Homo sapiens with 12 samples.

Results

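The addition of palmitoleate to palmitate was examined in K562 cells, a human leukaemia line with erythroid and megakaryocytic features. The comparison sets the library of wild-type cells given both fatty acids against the library of wild-type cells given palmitate alone in experiment 2 of 3. It thus holds 2 of the 12 labelled libraries, chosen by their labels, with 1 library on each side. The cells with both fatty acids received 0.2 mM palmitate and 0.2 mM palmitoleate, the palmitate cells 0.2 mM palmitate, and an untreated wild-type library of the same experiment received neither. Treatment lasted 20 h according to the labels and 16 h according to the legend inside the data table. All 3 libraries came from unedited wild-type K562 cells. Other palmitate and untreated wild-type libraries, from experiments 1 and 3, served to choose genes and to estimate the spread, and a library with palmitoleate alone from experiment 1 was read beside the results. No dose is stated for palmitoleate alone. Each library holds the pooled RNA of 3 biological replicates, so the spread between cultures of 1 experiment is not in the data.

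Palmitoleate differs from palmitate, which is saturated, by a single double bond in a chain of equal length. Cells that take up an excess of saturated fatty acid build saturated phospholipids and diglycerides, and the membrane of the endoplasmic reticulum (ER) becomes more rigid. The sensors IRE1, PERK and ATF6 then start the unfolded protein response, which induces chaperones and the machinery that removes misfolded proteins. PERK and related kinases also phosphorylate eIF2alpha, which favours translation of ATF4, the factor behind the integrated stress response and its genes of amino acid supply. Unsaturated fatty acids are known to direct palmitate into triglycerides and to lessen its toxicity.

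The values are FPKM, a level scaled by transcript length and by the number of mapped fragments. Summed FPKM was 653590 in the library with both fatty acids, 719404 in the palmitate library and 730566 in the untreated library. At least 1 FPKM was listed for 10884, 11108 and 10703 genes in the same order. Read counts are not in the deposited tables, so sequencing depth is unknown and no counting interval can be given. The 10 markers of erythroid and megakaryocytic identity, among them the embryonic globin HBE1, were each above 1 FPKM in all 3 libraries. Their summed level was 13665 FPKM with both fatty acids, 5102 with palmitate and 17991 untreated. Of the markers of B cells, fibroblasts and endothelial cells, none reached 1 FPKM. Single markers of other types did: CD3D of T cells at 13.5, 23.4 and 13.1 FPKM, LYZ of monocytes at 24.2, 19.8 and 26.9 FPKM, and EPCAM of epithelial cells at 29.6, 13.6 and 33.1 FPKM, in each case with both fatty acids, with palmitate and untreated. In bulk RNA, fewer cells of a kind and less RNA per cell cannot be told apart.

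With both fatty acids, most genes of ER folding, NF-kappaB, the immediate early response and NRF2 were lower than with palmitate, and most erythroid regulators were higher. Lower were 24 of 25, 13 of 14, 16 of 16 and 17 of 18 tested members of those 4 lists, against 47.2% of all tested genes, and higher were 14 of 14 erythroid regulators, against 52.5%. Of 14 genes of amino acid synthesis and related metabolism that ATF4 induces, 8 were higher and 6 lower. Ratios were taken as log2 of (FPKM + 1) between libraries of the same table, so the change of genes with low values is understated. Of 10923 tested genes, 967 were at least 2-fold higher with both fatty acids than with palmitate (8.85%) and 1134 were at least 2-fold lower (10.4%). The median log2 ratio over all tested genes was 0.04, with quartiles of -0.43 and 0.51.

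A replicate check of this ratio does not exist. The limma test therefore assumes that the lone ratio varies as the 3 wild-type ratios of palmitate to untreated did between experiments. It also treats these ratios as independent, although the palmitate library of experiment 2 enters both the lone ratio and 1 of the 3. On that assumption 206 genes were higher (1.89%) and 451 were lower (4.13%) at a Benjamini-Hochberg adjusted p under 0.05, 657 in all (6.01%), and each of the 657 had changed at least 2-fold. Below, a gene is said to have risen or fallen only where it passed this test, and ± marks the standard error of limma. The counts lean on which experiments give the spread. Without experiment 1 in the spread they were 818 higher and 996 lower, and without experiment 3 they were 91 and 294. With small RNA genes kept in the fit they were 4 and 11, and with the GC trend removed 1 and 6. No gene passed limma without the replicate block or without a filter on low values, where 1386 and 2333 genes had an unadjusted p under 0.05, against 2353 here. Among the genes named below or held in the gene lists, AKR1C1, BBC3, CRELD2, DNAJB11, DNAJC10, ERO1LB, FTL, GADD45A, GATA1, GLT25D2, HBG1, HBG2, HSP90B1, HSPA4L, HSPE1, HYOU1, IER5, LMO2, MCL1, ME1, PCNA, PDIA4, PIR, PLIN2, POLR1A, POLR1B, PPIB, RCSD1, SCG3, SDF2L1, SEC61B, SLC3A2, SSR2, TFE3 and TYMS no longer passed without experiment 3 in the spread, at adjusted p between 0.0524 and 0.159 by limma. GLT25D2 and POLR1A also missed it without experiment 2, at 0.0571 and 0.0546. The authors' deposited table gives a q value under 0.05 to 64 of the tested genes in this comparison, 55 of them lower and 9 higher with both fatty acids, and 62 of the 64 also passed limma.

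The largest fall, among genes that averaged at least 5 FPKM over both libraries, was that of IL8, which encodes the neutrophil chemokine interleukin-8. IL8 stood at 0.581 FPKM with both fatty acids, 695 FPKM with palmitate and 0.0843 FPKM untreated. Its log2 ratio of both fatty acids to palmitate was -8.78 ± 0.78 (limma 95% interval -10.5 to -7.09, adjusted p = 0.000503). The library with both fatty acids thus lay beside the untreated one and far from the palmitate one. In the palmitate libraries of experiments 1 and 3, which are not part of this ratio, IL8 stood at 257 and 186 FPKM.

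The other large falls joined secreted, signalling and cell cycle genes. OLAH, a thioesterase that releases fatty acids from fatty acid synthase, stood at 0.319 FPKM with both fatty acids, 82.8 with palmitate and 0.0323 untreated (log2 ratio to palmitate -5.99 ± 0.81, adjusted p = 0.00346). IFI16, a sensor of foreign DNA, stood at 1.33, 91.5 and 1.57 FPKM in that order (-5.31 ± 0.55, adjusted p = 0.00106). Both genes were below 2 FPKM with both fatty acids and untreated. CDKN1A, the cyclin-dependent kinase inhibitor p21, had 4.26 FPKM with both fatty acids, 146 with palmitate and 1.99 untreated (-4.80 ± 0.74, adjusted p = 0.00549). PAEP, PHLDA1, KLF6, OSCAR, NDRG1 and COL6A2 fell by log2 ratios of -6.98, -5.15, -4.93, -4.86, -4.82 and -4.68. For each of them the palmitate library of experiment 2 was the highest palmitate library. PAEP, OSCAR and COL6A2 had 199, 54.9 and 27.4 FPKM there. In the palmitate libraries of experiments 1 and 3, PAEP had 6.60 and 12.7 FPKM, OSCAR 0.800 and 3.18, and COL6A2 0.901 and 5.87. The size of these falls thus leans on 1 palmitate library. OSCAR and COL6A2 also reached the mean of 1 FPKM required for the test only through that library. SPRR2D, which has close paralogues that may share reads, fell by 5.15 on the log2 scale and stayed above untreated, at 14.7 FPKM with both fatty acids, 555 with palmitate and 4.20 untreated.

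The largest rises were led by genes of red cell development. KLF1, the factor that drives adult globin genes, stood at 70.1 FPKM with both fatty acids, 3.54 with palmitate and 89.8 untreated (log2 ratio to palmitate 3.97 ± 0.64, adjusted p = 0.00638). NFE2, an erythroid and megakaryocytic factor, stood at 109, 6.04 and 130 FPKM in that order (3.96 ± 0.63, adjusted p = 0.00609). HEMGN, a nuclear protein of blood progenitors, had 103, 6.91 and 99.9 FPKM (3.72 ± 0.61, adjusted p = 0.00638). For these genes the palmitate library was the low one, and the other two libraries lay close together. MYB, a factor of dividing blood progenitors, rose by 3.21 ± 0.53 and stood above its untreated level, at 58.3 FPKM with both fatty acids, 5.41 with palmitate and 40.2 untreated (adjusted p = 0.00651). In experiments 1 and 3, MYB had 65.8 and 76.5 FPKM untreated and 34.1 and 29.5 FPKM with palmitate. Its place above untreated thus rests on the untreated library of experiment 2, and the size of its rise leans on the palmitate library there. HBD, SDPR, HBBP1, FAM178B, LOC100130231, SH2D1B, ID1 and AHSP rose by log2 ratios between 3.25 and 2.86.

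**Figure D1:**
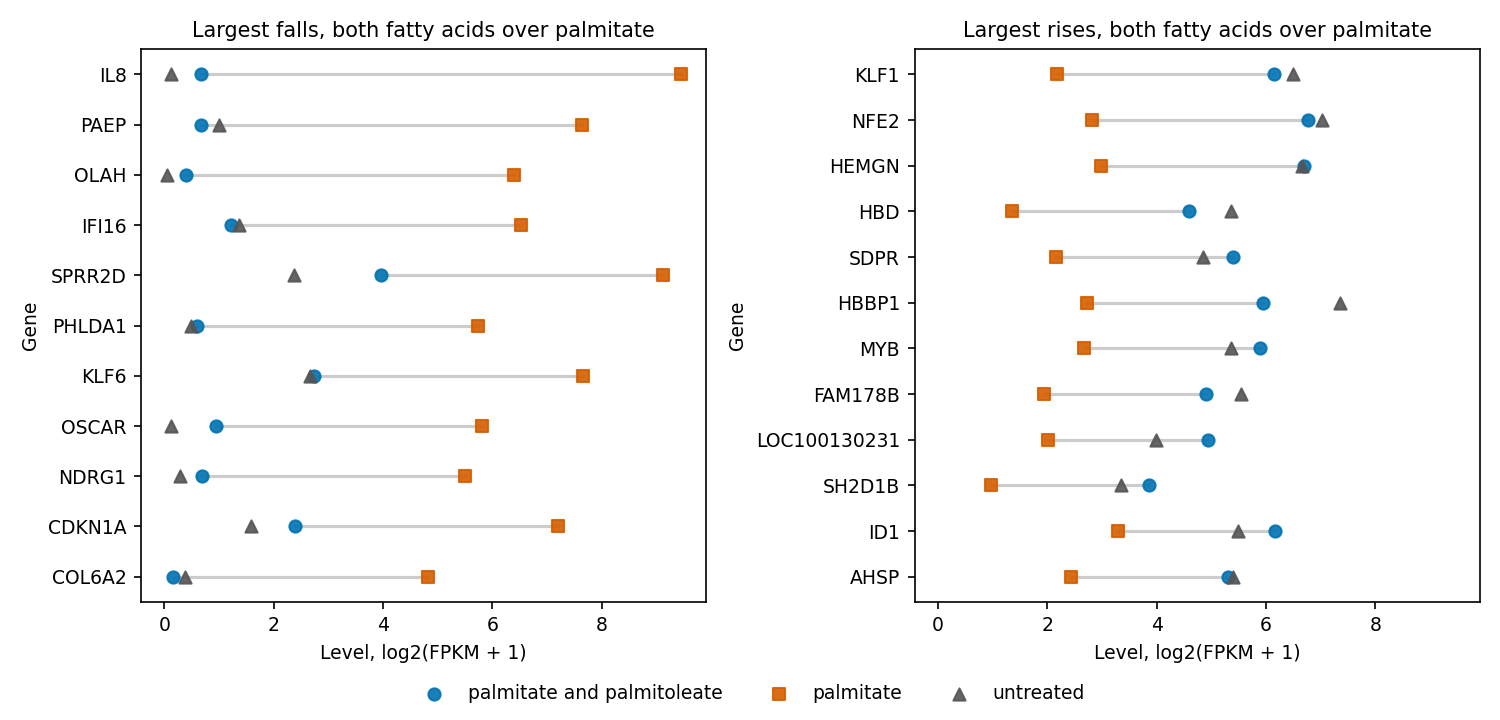
Levels of 11 of the largest falls (left) and of the 12 largest rises (right) among genes that passed limma, as log2(FPKM + 1); each symbol is 1 library and the grey line joins the library with both fatty acids to the palmitate library. The circle of both fatty acids lies near the untreated triangle for most genes; SPRR2D stays above untreated and HBBP1 below.

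To ask how far the palmitate response was undone, genes were chosen by libraries that take no part in the comparison. In experiments 1 and 3, palmitate raised 371 of the tested genes at least 2-fold over untreated in both (3.4%) and lowered 83 at least 2-fold in both (0.76%). Of the 371, 329 were at least 2-fold lower with both fatty acids than with palmitate in experiment 2, which is 88.7% against 10.4% of all tested genes. None of them was 2-fold higher, and 369 were lower by any amount. Of the 83, 81 were at least 2-fold higher with both fatty acids, which is 97.6% against 8.85% of all tested genes. Chosen in experiment 1 alone, the shares were 60.0% of 727 raised and 29.0% of 1222 lowered genes. The log2 ratio ran against that of palmitate over untreated across all tested genes, with a Spearman rho of -0.47 for experiment 1 and -0.84 for experiment 3. The experiment 1 ratio of palmitate to untreated also followed GC content across genes (rho -0.64 over the 9507 genes with a value), the ratio described here did not to that degree (rho -0.05), and the part of GC content in the experiment 1 values was not tested. These correlations are over genes and describe the libraries only.

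In experiment 2 itself, the 371 raised genes had a median log2 ratio to untreated of 0.32 with both fatty acids and 2.30 with palmitate. The 83 lowered genes had medians of -0.25 with both fatty acids and -2.26 with palmitate. Within 2-fold of untreated lay 320 of the 371 and 80 of the 83. The share of the palmitate change that was taken back, on the log2 scale, had a median of 86.0% over the 362 raised genes that palmitate had also raised 2-fold in experiment 2, with quartiles of 71.5 and 96.8%. For the 83 lowered genes it was 89.7%, with quartiles of 81.4 and 98.9%. Numerator and denominator of this share use the same palmitate library, so an error in that library moves both. Over all tested genes, the median absolute log2 ratio was 0.47 for both fatty acids over palmitate, 0.18 for both fatty acids over untreated and 0.53 for palmitate over untreated.

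**Figure D2:**
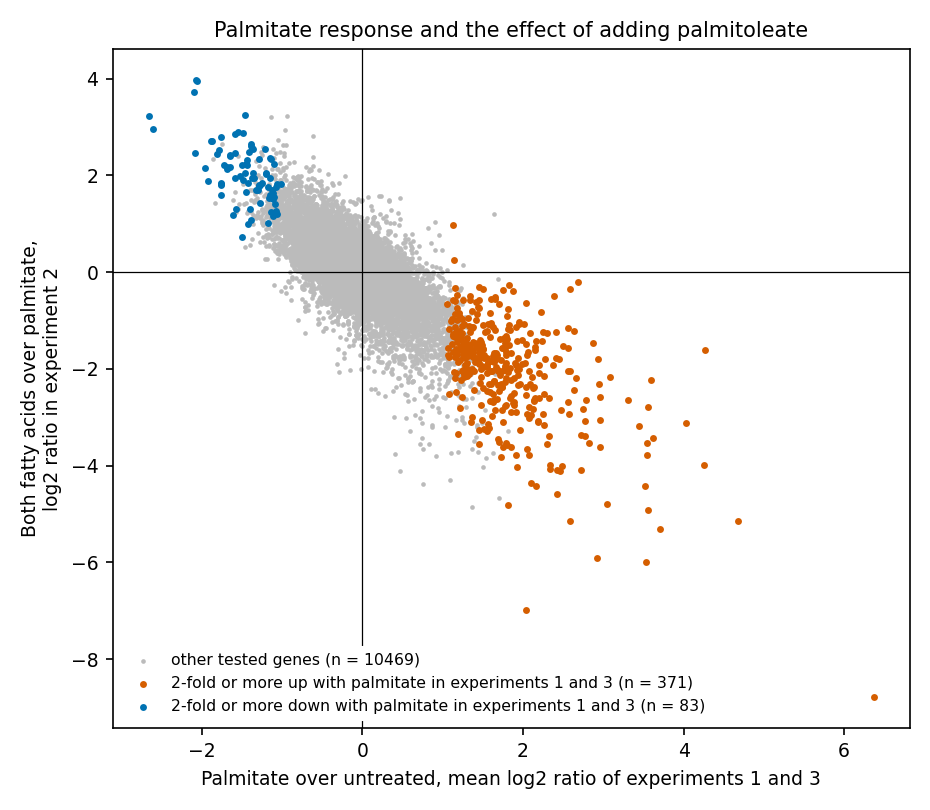
Each point is a tested gene; the x axis is the mean log2 ratio of palmitate to untreated in experiments 1 and 3, and the y axis is the log2 ratio of both fatty acids to palmitate in experiment 2. Of the 371 raised genes (orange), 369 lie below 0, and all 83 lowered genes (blue) lie above 0.

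Many chaperones and folding enzymes of the ER lumen fell. Of 25 members tested, 12 fell, against 4.13% of all tested genes, and none rose, and the median log2 ratio of both fatty acids to palmitate was -1.55, against 0.04 over all tested genes. Without experiment 3 in the spread, 3 of the 25 fell. HSPA5 (BiP), the main Hsp70 chaperone of the ER, stood at 173 FPKM with both fatty acids, 1451 with palmitate and 148 untreated (-3.06 ± 0.39, limma 95% interval -3.90 to -2.23, adjusted p = 0.00247). HSP90B1, the Hsp90 of the ER, had 283, 1044 and 271 FPKM in that order (-1.88, adjusted p = 0.0161 by limma). For both genes the library with both fatty acids lay close to the untreated one. DNAJB9, a co-chaperone that restrains IRE1, stood at 9.42 FPKM with both fatty acids, 61.5 with palmitate and 4.73 untreated (-2.58, adjusted p = 0.00681 by limma). MANF, a secreted factor held in the ER, fell by 2.38 on the log2 scale. PDIA4, DNAJB11, HYOU1, SDF2L1, CRELD2, ERO1LB, DNAJC10 and PPIB also fell. The 13 members chosen as raised in experiments 1 and 3 returned by a median of 95.6% (75 to 112).

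Of 35 tested components of ER-associated degradation and of the secretory pathway, 8 fell, against 4.13% of all tested genes. None rose, and the median was -1.10. Without experiment 1 in the spread, 22 of the 35 fell. SEC24D, a cargo adaptor of the vesicle coat that leaves the ER, stood at 9.61 FPKM with both fatty acids, 75.2 with palmitate and 6.48 untreated (-2.84). EDEM1, which extracts misfolded glycoproteins for degradation, had 9.10, 56.8 and 5.99 FPKM in that order (-2.52), and SELS, a selenoprotein of the degradation complex, had 41.6, 249 and 44 FPKM (-2.55). HERPUD1, a membrane scaffold of the same complex, stood at 28.5 FPKM with both fatty acids, 147 with palmitate and 10.1 untreated (-2.32). HERPUD1 was 1 of 22 raised genes of these ER lists that stayed at least 2-fold above untreated.

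The ER stress element, which ATF6 binds together with NF-Y, is printed here because chaperone genes fell together. Its letters were taken as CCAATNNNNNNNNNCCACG on either strand. In the RefSeq promoters (GRCh38.p14, 250 bases before to 50 after each start) it occurred in 22 of 27305, or 0.0806%. Among promoters that matched tested genes it occurred in 13 of 7800 (0.167%), among the raised genes in 5 of 271 (1.85%), and among the chaperone list in 5 of 21, those of HSPA5, HSP90B1, CALR, CANX and CRELD2. Of these, HSPA5, HSP90B1 and CRELD2 fell, and CALR and CANX did not pass. The other chaperone genes that fell are not among the matches. A match describes the letters and is not evidence of binding. The HSPA5 promoter follows whole (minus strand, chr9:125241294-125241593), with the element in capitals, and below it a window of 1 of the 2 matches in the HSP90B1 promoter (plus strand, chr12:103930216-103930234 for the capitals).
HSPA5 promoter: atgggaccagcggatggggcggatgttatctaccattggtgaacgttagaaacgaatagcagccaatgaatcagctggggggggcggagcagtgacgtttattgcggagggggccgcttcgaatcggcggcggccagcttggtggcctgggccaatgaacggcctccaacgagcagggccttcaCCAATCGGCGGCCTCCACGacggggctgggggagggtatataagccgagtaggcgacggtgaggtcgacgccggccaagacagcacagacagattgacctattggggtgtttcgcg
HSP90B1 site: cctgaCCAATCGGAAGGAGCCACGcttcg

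Regulators of the unfolded protein and integrated stress responses were mixed. Of 20 tested, 5 fell, against 4.13% of all tested genes, and none rose, with a median of -0.88. Without experiment 1 in the spread, 9 fell. ATF3, a stress-induced repressor and activator, stood at 19.6 FPKM with both fatty acids, 326 with palmitate and 4.07 untreated (-3.99 ± 0.65, adjusted p = 0.00638 by limma). DDIT3 (CHOP), a factor that promotes death of stressed cells, had 128, 799.9 and 66.8 FPKM in that order (-2.64 ± 0.44, adjusted p = 0.00693 by limma). Both genes fell and both kept a level above untreated. PPP1R15A (GADD34), which ends the response by removing phosphate from eIF2alpha, came to 45.2 FPKM with both fatty acids, 319.99 with palmitate and 38.6 untreated (-2.80). NUPR1, a small stress protein of chromatin, and EIF2AK3, which encodes PERK, fell, NUPR1 by 3.62 on the log2 scale. ATF4 itself did not pass, at 372, 641 and 175 FPKM (-0.78 ± 0.45, adjusted p = 0.344 by limma). TRIB3, a pseudokinase that ATF4 induces, had 97.5 FPKM with both fatty acids, 342 with palmitate and 27.0 untreated and missed the threshold (-1.80, adjusted p = 0.0614 by limma). The deposited XBP1 value does not separate its spliced form, and stood at 68.4, 122 and 36.1 FPKM (-0.83).

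Of the 14 tested amino acid synthesis genes of the ATF4 program, none passed in either direction, against 6.01% of all tested genes. Their log2 ratios to palmitate lay between -1.21 for ALDH1L2 and 1.20 for CHAC1, with a median of 0.10. CHAC1 is in this list although it breaks down glutathione. At least 2-fold higher were 2 members and at least 2-fold lower was 1, and without experiment 1 in the spread 3 rose and 1 fell. The median log2 ratio of both fatty acids to untreated was 1.49 for this list and 0.02 for the chaperones. ASNS, asparagine synthetase, stood at 318 FPKM with both fatty acids, 447 with palmitate and 60.7 untreated (-0.49 ± 0.39, limma 95% interval -1.33 to 0.35, adjusted p = 0.511). PHGDH, the first enzyme of serine synthesis, had 70.6, 90.6 and 7.29 FPKM in that order (-0.36 ± 0.51, adjusted p = 0.737 by limma). For ASNS and PHGDH the untreated library was the low one. PSAT1, the next enzyme of serine synthesis, stood at 139 FPKM with both fatty acids, 70.3 with palmitate and 34.7 untreated (0.97 ± 0.39, adjusted p = 0.167 by limma). DDIT4 (REDD1), an ATF4-induced inhibitor of mTORC1, stood at 399 FPKM with both fatty acids, 463 with palmitate and 20.4 untreated (-0.21 ± 0.64, adjusted p = 0.882 by limma). The 95% interval of DDIT4, -1.6 to 1.17, is wide enough to hold a 2-fold change in either direction.

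Of the 96 genes at least 2-fold above untreated with both fatty acids (0.879% of those tested; 20, or 0.183%, were 2-fold below), 51 belong to the 371 raised genes, which is 13.7% of them. In the 5 lists of stress regulators, amino acid synthesis, amino acid transport, tRNA synthetases and stress-induced secreted factors, 17 of 28 raised members stayed 2-fold above untreated (60.7%). In the 2 ER lists it was 1 of 22 (4.55%). These shares are counts over 1 library each and their difference was not tested. DDIT4 kept most of its palmitate change, with 4.84% taken back. The share was 10.3% for PHGDH, 17.1% for ASNS, 19.3% for CLIC4 and 33.9% for ATF5. INHBE, an activin subunit induced by ER stress, stood at 23.2 FPKM with both fatty acids, 72.6 with palmitate and 0.884 untreated (30.4% taken back). GDF15, a circulating stress hormone, fell to 59.2 FPKM with both fatty acids, against 543 with palmitate, and stood at 19.5 untreated (-3.18 ± 0.50, adjusted p = 0.00609 by limma).

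**Figure D3:**
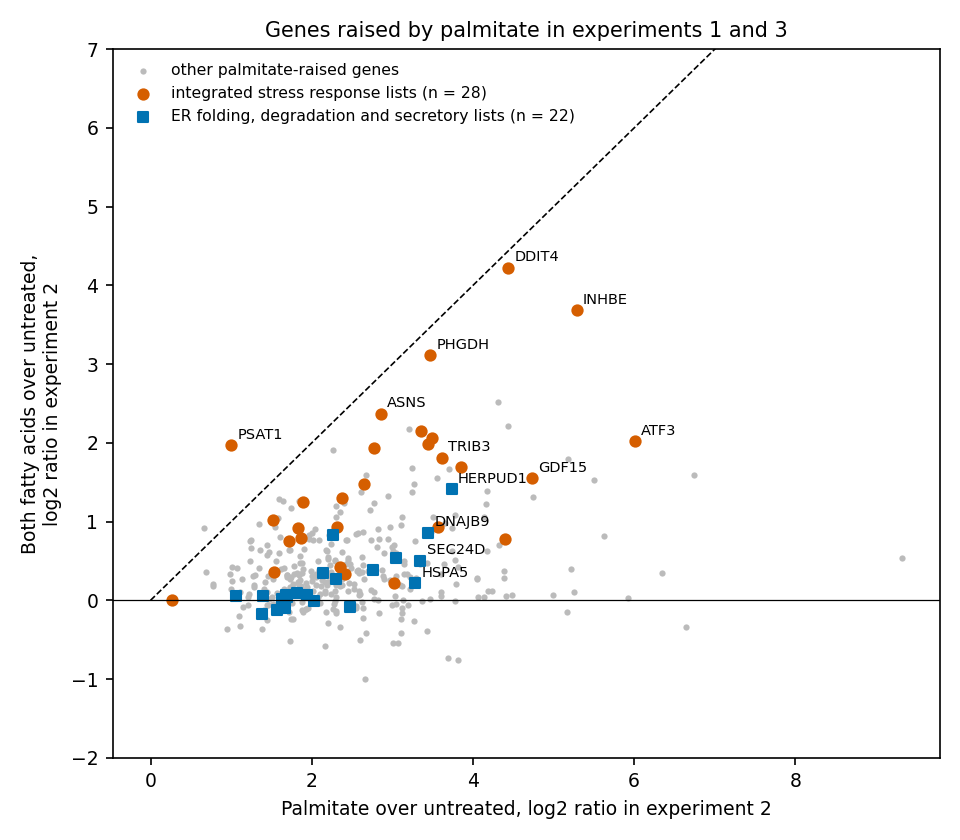
The 371 genes raised by palmitate in experiments 1 and 3, with the log2 ratio to untreated in experiment 2 of both fatty acids (y axis) and of palmitate (x axis); on the dashed line both are equal, and on the line at 0 the level is that of untreated cells. DDIT4, PHGDH and ASNS lie near the dashed line and PSAT1 above it, while HSPA5 lies near 0; both axes use the same untreated library.

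Amino acid carriers and tRNA synthetases are read against the 6.01% of all tested genes that passed. Of 11 tested amino acid transporters, SLC3A2 alone passed, the heavy chain of several exchangers, at 157 FPKM with both fatty acids, 595 with palmitate and 116 untreated (-1.92, adjusted p = 0.0177 by limma). SLC7A11, the cystine carrier that pairs with it, had 8.85, 26.1 and 1.48 FPKM in that order (-1.46, adjusted p = 0.0608 by limma). Of 20 cytosolic aminoacyl-tRNA synthetases, none passed, and the median was 0.03. WARS, the tryptophan enzyme, stood at 195 FPKM with both fatty acids, 439.9 with palmitate and 69.1 untreated (-1.17, adjusted p = 0.141 by limma).

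A motif of the kind that ATF4 binds as a dimer with C/EBP factors is shown for genes that fell and genes that did not. The letters TGATGNAA, on either strand, occurred in 1003 of 27305 promoters (3.67%), in 120 of the 7800 of tested genes (1.54%), in 12 of the 271 of raised genes (4.43%) and in 3 of 9 of the amino acid synthesis list, those of ASNS, MTHFD1L and CHAC1. ATF3 and HERPUD1, which fell, hold it as well. The ASNS promoter (minus strand, chr7:97872359-97872658) is given whole, with windows of CHAC1 (chr15:40953262-40953269), ATF3 (chr1:212565216-212565223) and HERPUD1 (chr16:56931966-56931973), where the coordinates are those of the capitals and each window is written along the strand that reads TGATG.
ASNS promoter: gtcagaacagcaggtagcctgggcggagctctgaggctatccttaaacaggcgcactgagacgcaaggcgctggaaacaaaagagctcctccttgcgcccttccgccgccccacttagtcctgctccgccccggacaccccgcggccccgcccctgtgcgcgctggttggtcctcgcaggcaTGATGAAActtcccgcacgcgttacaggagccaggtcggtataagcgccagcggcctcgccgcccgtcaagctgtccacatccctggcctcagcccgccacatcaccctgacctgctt
CHAC1 site: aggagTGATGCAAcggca
ATF3 site: caggaTGATGGAAggctg
HERPUD1 site: cgggcTGATGCAAcccgc

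A few genes stood at least 2-fold above both untreated and palmitate with both fatty acids. There were 7 with a mean of at least 5 FPKM. IGFBP4, which binds insulin-like growth factors, stood at 36.7 FPKM with both fatty acids, 4.33 with palmitate and 7.48 untreated (log2 ratio to palmitate 2.82 ± 0.42, adjusted p = 0.00472 by limma). RCSD1, a capping protein partner of actin, had 18.6, 5.14 and 8.14 FPKM in that order (1.67, adjusted p = 0.0289 by limma), and GLT25D2, a collagen galactosyltransferase, had 28.8, 8.97 and 8.76 FPKM (1.58, adjusted p = 0.0374 by limma). These 3 genes rose over palmitate. HES1, a repressor downstream of Notch, and 3 genes that ATF4 is known to induce did not pass: CHAC1, which breaks down glutathione, stood at 21.6 FPKM with both fatty acids, 8.82 with palmitate and 0.362 untreated (1.20 ± 0.61, adjusted p = 0.281 by limma). GPT2, the mitochondrial alanine aminotransferase, had 8.03, 3.20 and 1.26 FPKM, and STC2, a secreted stress glycoprotein, had 11.1, 4.93 and 2.40 FPKM. Untreated RCSD1 stood at 18.1 and 17.8 FPKM in experiments 1 and 3, about its level with both fatty acids. HES1 had 13.1 FPKM with both fatty acids and 5.31 untreated in experiment 2, but 13.2 and 15.4 untreated in experiments 1 and 3. For RCSD1 and HES1 the place above untreated thus rests on the untreated library of experiment 2. Untreated IGFBP4 had 20.5 FPKM and untreated STC2 5.13 FPKM in experiment 1. Their levels with both fatty acids were above these, but by less than 2-fold on the FPKM + 1 scale. CHAC1, GPT2 and GLT25D2 stood at least 2-fold above untreated of experiments 1 and 3 too, though the experiments are scaled separately. At least 2-fold below both stood 2 genes, and both fell: CD24, a surface sialoglycoprotein, at 2.42 FPKM with both fatty acids, 13.3 with palmitate and 8.85 untreated, and SCG3, a granin, at 4.74, 17.3 and 13.8 FPKM. Both genes also differed between experiments without treatment. Untreated CD24 had 44.7 and 56.5 FPKM, and untreated SCG3 29.7 and 40.7 FPKM, in experiments 1 and 3.

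Of 14 tested NF-kappaB and chemokine genes, 8 fell with both fatty acids, against 4.13% of all tested genes, and none rose, with a median of -1.98. Beside IL8, CXCL3 stood at 11.7 FPKM with both fatty acids, 109 with palmitate and 7.22 untreated (-3.11, adjusted p = 0.00346 by limma). RELB, a subunit of NF-kappaB, had 0.327, 17.2 and 0.0915 FPKM in that order (-3.77), and IER3, an early response gene, had 15.9, 272 and 12.1 FPKM (-4.01). In all of these the library with both fatty acids lay near the untreated one. CXCL2, CCL2, IL6 and NFKBIA, the inhibitor of NF-kappaB, fell as well. CXCL2 and CXCL3 are close paralogues, and the authors' counting may have divided reads between them.

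Of 16 immediate early and AP-1 genes tested, 9 fell, against 4.13% of all tested genes, and none rose, with a median of -2.43. JUN, an AP-1 subunit, stood at 9.03 FPKM with both fatty acids, 104 with palmitate and 9.10 untreated (-3.38, adjusted p = 0.00327 by limma). EGR1, an early zinc finger factor, had 12.6, 178 and 8.17 FPKM in that order (-3.71, adjusted p = 0.0262 by limma), and KLF6 had 5.68, 202 and 5.36 FPKM. DUSP5 and DUSP1, phosphatases that switch off MAP kinases, fell by 3.85 and 2.86 on the log2 scale, and FOS, FOSB, NR4A1 and IER5 fell as well.

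The letters GGAATTTCC, an NF-kappaB site, were searched on both strands because the chemokines fell together. They occurred in 129 of 27305 promoters (0.472%), in 34 of 7800 of tested genes (0.436%), in 5 of 271 of raised genes (1.85%) and in 7 of 15 of the NF-kappaB list, those of IL8, CXCL1, CXCL2, CXCL3, NFKBIA, NFKB1 and ICAM1. Of these, IL8, CXCL2, CXCL3 and NFKBIA fell, and CXCL1, NFKB1 and ICAM1 are not among the genes that fell. RELB, IER3, CCL2 and IL6 fell and are not among the matches. The IL8 promoter (plus strand, chr4:73740319-73740618) is given whole, with the site in capitals. The windows of CXCL2 (minus strand, chr4:74099264-74099272 for the capitals) and CXCL3 (minus strand, chr4:74038759-74038767) are the same over all their bases.
IL8 promoter: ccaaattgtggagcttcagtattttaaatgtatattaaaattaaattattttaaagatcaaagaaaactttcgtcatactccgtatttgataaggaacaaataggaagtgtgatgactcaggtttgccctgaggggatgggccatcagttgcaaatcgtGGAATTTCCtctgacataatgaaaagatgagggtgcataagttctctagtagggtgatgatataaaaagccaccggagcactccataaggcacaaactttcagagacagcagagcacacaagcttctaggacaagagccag
CXCL2 site: ctccgGGAATTTCCctggc
CXCL3 site: ctccgGGAATTTCCctggc

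Of 18 tested targets of NRF2, the factor of the oxidative stress response, 12 fell with both fatty acids, against 4.13% of all tested genes. None rose, and the median was -1.97. OSGIN1, an oxidative stress-induced growth inhibitor, stood at 3.51 FPKM with both fatty acids, 95 with palmitate and 3.30 untreated (-4.41 ± 0.49, adjusted p = 0.00108 by limma). SQSTM1 (p62), an autophagy receptor and a partner of the NRF2 pathway, had 75.1, 880.3 and 90.1 FPKM in that order (-3.53 ± 0.40, adjusted p = 0.0011 by limma). Both stood about at their untreated level. GCLC and GCLM, the subunits of the enzyme that limits glutathione synthesis, fell by 2.50 and 1.97 on the log2 scale, and NQO1, TXNRD1, SRXN1, AKR1C1, PIR and ME1 fell as well. The ferritin chains FTH1 and FTL, which have many processed pseudogenes, fell too: FTH1 stood at 1844 FPKM with both fatty acids, 8314 with palmitate and 2300 untreated. HMOX1, a classical NRF2 target, was under 0.1 FPKM in all 3 libraries and was not tested.

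The counts of the next lists are read against the 4.13% of all tested genes that fell and the 1.89% that rose. Of 27 tested genes of autophagy and lysosomes, 8 fell and none rose, with a median of -0.85. CTSL1, a lysosomal cysteine protease, stood at 69.6 FPKM with both fatty acids, 1684 with palmitate and 119 untreated (-4.58 ± 0.53, adjusted p = 0.00132 by limma). WIPI1, which marks forming autophagosomes, had 9.89, 91.5 and 4.24 FPKM in that order (-3.09). In the palmitate libraries of experiments 1 and 3, CTSL1 had 228 and 430 FPKM, so the size of its fall leans on experiment 2. Of 16 apoptosis regulators, 3 fell (1 without experiment 3 in the spread, 5 without experiment 1) and none rose: TNFRSF10B (the death receptor DR5), BBC3 (the death effector PUMA) and MCL1, which protects from apoptosis. TNFRSF10B stood at 22.7 FPKM with both fatty acids, 153 with palmitate and 10.2 untreated (-2.69, adjusted p = 0.00925 by limma). Beside CDKN1A, 3 of the 16 tested p53 targets and cyclin-dependent kinase inhibitors fell, namely BTG2, GADD45A and GADD45B. Of 11 tested interferon-related genes, IFI16, ISG20 and IRF1 fell. IFI30, a lysosomal thiol reductase, rose to 81.4 FPKM with both fatty acids, against 14.2 with palmitate, and stood at 116 untreated (2.44, adjusted p = 0.0134 by limma).

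Each list of lipid metabolism held 0 to 2 genes that passed, where 6.01% of all tested genes did. None of the 24 tested genes of cholesterol synthesis and uptake passed, with a median of -0.15. STARD4, a carrier of cholesterol between membranes, stood at 12.4 FPKM with both fatty acids, 32.5 with palmitate and 6.89 untreated (-1.32, adjusted p = 0.116 by limma). HSD17B7, an enzyme of late cholesterol synthesis, had 9.08, 21.2 and 4.67 FPKM in that order (-1.14, adjusted p = 0.131 by limma). The desaturases did not pass either: SCD, which makes palmitoleate and oleate, had 150 FPKM with both fatty acids, 131 with palmitate and 97.6 untreated (0.19 ± 0.38, limma 95% interval -0.63 to 1.02), and FADS1 and FADS2 had log2 ratios of 0.28 and 0.35. FASN, fatty acid synthase, and SREBF1, the factor that induces it, had log2 ratios of 0.46 and 0.46, and neither passed.

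Of 16 tested genes of fatty acid synthesis, desaturation and elongation, OLAH and the NADPH-producing ME1 fell. ACSL5, an acyl-CoA synthetase, was the 1 of 11 uptake and activation genes that fell, at 0.305 FPKM with both fatty acids, 6.48 with palmitate and 0.194 untreated (-2.52). In the other wild-type libraries ACSL5 had 1.18 FPKM or less. It thus entered the test only through the palmitate library of experiment 2. PLIN2, the coat protein of lipid droplets, stood at 58.1 FPKM with both fatty acids, 175 with palmitate and 25.7 untreated (-1.58 ± 0.43, adjusted p = 0.049 by limma). PLIN2 was the member that passed both among 20 genes of fatty acid oxidation and PPAR targets and among 9 lipid droplet genes, and it kept more than 2-fold over untreated. CPT1A, which carries fatty acids into mitochondria, had 22 FPKM with both fatty acids, 6.76 with palmitate and 12.1 untreated and missed the threshold (1.57 ± 0.45, adjusted p = 0.061 by limma). AGPAT9, an acyltransferase of the first step of glycerolipid synthesis, fell to 5.08 FPKM with both fatty acids, against 45.6 with palmitate, and stood at 1.6 untreated (-2.94 ± 0.57, adjusted p = 0.0137 by limma). It was the 1 of 21 tested glycerolipid genes that passed, and AGPAT6 (GPAT4), of the same step, had 18.0, 20.0 and 21.0 FPKM with both fatty acids, with palmitate and untreated. None of 12 phospholipid remodelling genes, 17 ceramide genes and 6 LXR genes passed, with medians of 0.39, -0.21 and -0.31.

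Of 14 tested erythroid transcription factors and regulators, 9 rose, against 1.89% of all tested genes, and none fell, with a median log2 ratio of both fatty acids to palmitate of 2.09. GATA1, the master factor of red cell genes, stood at 147 FPKM with both fatty acids, 40.8 with palmitate and 153 untreated (1.83 ± 0.43, adjusted p = 0.0278 by limma). LMO2 and LDB1, which join GATA1 in a complex, and the repressors GFI1B and IKZF1 rose as well, by 2.01, 2.18, 2.65 and 2.45 on the log2 scale. Of 20 tested globin and heme genes, 8 rose and none fell, with a median of 1.6. HBG1 and HBG2, the near-identical fetal globin genes between which reads cannot be assigned with certainty, stood at 1887 and 3679 FPKM with both fatty acids, at 525 and 1234 FPKM with palmitate, and at 2131 and 4714 FPKM untreated. Their log2 ratios to palmitate were 1.84 and 1.58 (adjusted p = 0.0279 and 0.0346 by limma). AHSP, the chaperone of alpha globin, had 38.4, 4.42 and 41.1 FPKM in the order both fatty acids, palmitate and untreated (2.86, adjusted p = 0.00809 by limma).

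Of 19 genes of the red cell membrane and iron handling, 3 rose (6 without experiment 1 in the spread), SPTB and PKLR among them, and the ferritins FTH1 and FTL fell. Over all tested genes, 1.89% rose and 4.13% fell. PKLR, the pyruvate kinase of red cells, stood at 45.4 FPKM with both fatty acids, 7.38 with palmitate and 54.6 untreated (2.47, adjusted p = 0.00728 by limma). Of the 83 genes lowered by palmitate in experiments 1 and 3, 3 stayed at least 2-fold below untreated with both fatty acids. They were the globin pseudogene HBBP1 at 60.6 FPKM against 163 untreated, the potassium channel gene KCNN4 at 5.82 against 19.0, and SELPLG, the ligand of P-selectin, at 3.16 against 7.82.

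Of 33 tested genes of DNA replication and G1/S, 5 rose, against 1.89% of all tested genes, and none fell, with a median of 1.02. Without experiment 3 in the spread 2 rose, and without experiment 1, 16. PCNA, the sliding clamp, stood at 192 FPKM with both fatty acids, 39.2 with palmitate and 232 untreated (2.26, adjusted p = 0.0285 by limma). CCNE1, the cyclin of S phase entry, had 21.6, 3.80 and 26.4 FPKM in that order (2.24, adjusted p = 0.025 by limma), and UNG and TYMS rose as well. Of 18 tested ribosome biogenesis genes, POLR1A and POLR1B, the large subunits of RNA polymerase I, rose, with a list median of 1.17. Without experiment 3 none of the 18 rose, and without experiment 1, 8 did. None of 19 mitosis genes passed, and their median was 0.63. MYC had 119 FPKM with both fatty acids, 131 with palmitate and 98.3 untreated (-0.13 ± 0.42, adjusted p = 0.888 by limma). Of 16 heat shock genes, mitochondrial HSPE1 and HSPA4L rose (median 0.80), none without experiment 3 and 5 genes without experiment 1. None of 25 oxidative phosphorylation genes or 25 proteasome genes passed, with medians of 0.44 and -0.11. Of 23 glycolysis and hypoxia genes the arrestin-like ARRDC4 fell (median -0.07), and neither of the 2 tested metallothioneins passed.

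**Figure D4:**
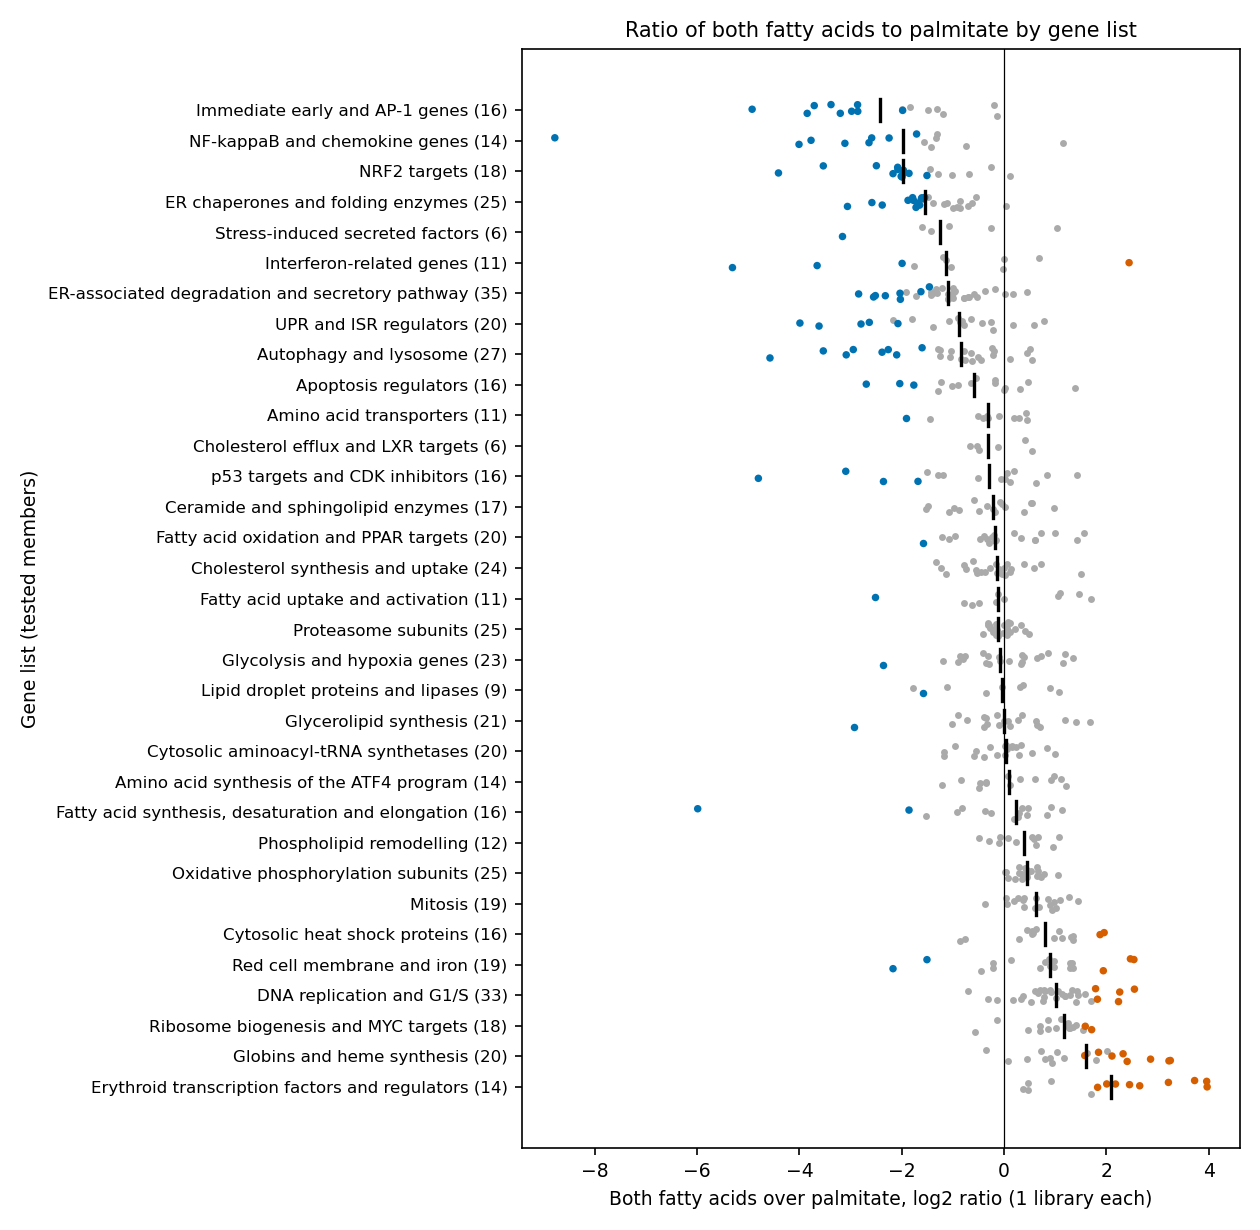
Log2 ratio of both fatty acids to palmitate for every tested member of each gene list; points in blue fell and points in orange rose by limma, grey points did not pass, and the black bar is the list median. Medians run between -2.43 for immediate early genes (top) and 2.09 for erythroid factors (bottom); the metallothioneins are not drawn.

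Palmitoleate alone was given in experiment 1, and its ratio to palmitate shares no library with the ratio of experiment 2. The doses could not be matched, so the values stand side by side with no test. Across the 10923 tested genes the log2 ratios had a Spearman rho of 0.81. Both ratios have a palmitate library as denominator, so a palmitate response common to both experiments moves them in the same direction. The ratio of experiment 2 had a rho of -0.84 with palmitate over untreated in experiment 3, where no palmitoleate was given. How much of the agreement comes from palmitate alone was not tested. Of the 967 genes at least 2-fold higher with both fatty acids than with palmitate, 943 were also higher with palmitoleate than with palmitate in experiment 1 (97.5%), where 52.0% of all tested genes were. Of the 1134 at least 2-fold lower, 1106 were also lower there (97.5%), where 47.7% of all tested genes were. At least 2-fold in experiment 1 were 90 of the 967 (0.943% of all tested genes were 2-fold higher) and 440 of the 1134 (4.56% were 2-fold lower). Their median log2 ratios in experiment 1 were 0.62 and -0.85. The limma calls are not used here, because their spread draws on the palmitate library of experiment 1. IL8 stood at 1.79 FPKM with palmitoleate, 257 with palmitate and 2.56 untreated in experiment 1, and KLF1 at 44.6, 16.2 and 71.8 FPKM in that order. Both had the direction they showed with both fatty acids. DDIT4 stood at 174 FPKM with palmitoleate, 246 with palmitate and 68.3 untreated, PHGDH at 26.1, 51.5 and 12.6 FPKM, and PSAT1 at 102, 108 and 47.0 FPKM. In these 3 genes of the ATF4 program the palmitoleate library also lay above the untreated one. CHAC1, above both in experiment 2, had 6.92 FPKM with palmitoleate, 6.76 with palmitate and 3.95 untreated.

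**Figure D5:**
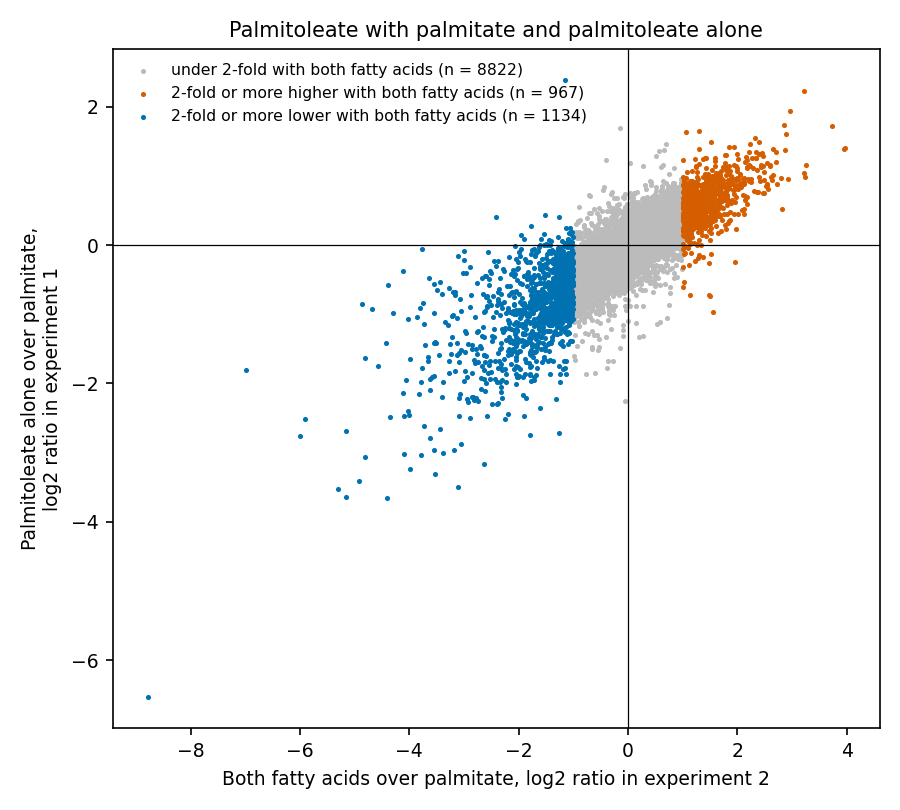
Each point is a tested gene; the x axis is the log2 ratio of both fatty acids to palmitate in experiment 2 and the y axis the log2 ratio of palmitoleate alone to palmitate in experiment 1, with no stated dose. Of 967 genes at least 2-fold higher with both fatty acids (orange), 943 lie above 0 on the y axis, and of 1134 at least 2-fold lower (blue), 1106 lie below it. Both axes have a palmitate library as denominator, so a shared palmitate response moves both in the same direction.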

How the data were processed

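Per the series' design text, total RNA of 3 biological replicates was pooled, stranded poly(A) libraries were sequenced in paired ends, mapping was to hg19 with TopHat2, corrected for multi-reads, and normalisation and comparison of libraries were by Cuffdiff (versions not given in the sources used here). The authors deposited FPKM per gene in 1 table per experiment, scaled within it, with Cuffdiff p-values and q-values between single libraries. The deposited q-values are quoted but decided no call. Of the genes listed, 23153 are shared by the 3 tables, after 26 symbols turned into dates and inconsistent listings (relative difference over 0.01) were left out. The tables hold 2 unlabelled libraries, which were not used.

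Ratios of log2(FPKM + 1) were formed within a table. Tested were 10923 genes whose mean was 1 FPKM or more over the 8 wild-type libraries, without small RNA and SNAR genes (180 at that level). The 2 libraries compared are among the 8. A gene high in the palmitate library of experiment 2 alone could thus enter through it, as ACSL5, OSCAR and COL6A2 did. What this adds to the number of falls was not tested. With limma 3.58.1 in R 4.3.3 (intensity trend, Benjamini-Hochberg adjustment, threshold 0.05), the single ratio borrowed the spread of the 3 wild-type palmitate ratios (2 residual and 11 prior degrees of freedom). P-values thus measure the spread between experiments of pooled RNA. The palmitate library of experiment 2 enters both the tested ratio and 1 of the 3 ratios that give the spread, and the fit takes them as independent. The labels' experiment number pairs the libraries: deviations of palmitate and untreated libraries correlated at 0.359, 0.683 and 0.687 within an experiment and at -0.586 to 0.145 between experiments. The fit was also run on simulated ratios, drawn independently and with the lone ratio given the spread of the palmitate ratios. That run takes both assumptions as given, so it cannot check them.

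Named were the 12 largest rises and falls with a mean of at least 5 FPKM, up to 4 members per list by absolute ratio, 8 genes with the least return, genes beyond both other libraries and a panel of 44 genes. A few genes under this rule are not reported here; counts over lists include them. Members named beyond these were chosen after their values were seen. The comparison, the 34 gene lists and the tests were chosen with earlier results of these data known. Promoter sequences are from RefSeq (GRCh38.p14) and were matched by symbol. Tables were handled in Python 3.11.15 with pandas 2.3.3. Alternatives were the pseudocount, the filters, centring, the trend, the block, a GC correction and each experiment left out.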

Additional observations from a re-analysis of the deposited data

How the results depend on the processing

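The number of genes that passed limma depended on the setting, and the cause was not tested. Against 206 higher and 451 lower, keeping small RNA and SNAR genes gave 4 and 11, and using no filter on low values gave 0 and 0 (2333 genes at an unadjusted p under 0.05). Removing the GC trend, on the 9507 genes with a GC value, gave 1 and 6. Leaving out 1 experiment at a time gave 91 to 818 higher and 294 to 996 lower. Without the replicate block, which takes all 3 palmitate libraries across separately scaled tables, 0 and 0 passed (1386 at an unadjusted p under 0.05). The other settings stayed within 1.5 times. The share of palmitate-raised genes at least 2-fold lower with both fatty acids was 95.7% when chosen at 3-fold and 60.0% when chosen in experiment 1 alone. The matching share of palmitate-lowered genes was 100% at 3-fold and at a mean of at least 5 FPKM, 29.0% when chosen in experiment 1 alone and 89.7% when chosen in experiment 3 alone. Of 178 named genes tested, 82 had passed and none of these changed sign, but 76 no longer passed with small RNA genes kept, 69 with the GC trend removed, and all 82 without the filter and without the replicate block. The log2 ratio changed sign for 11 others, each without the replicate block: AGPAT6 (0.33), DDIT4 (0.38), FADS1 (-0.37), MT2A (0.13), MYC (0.23), NR1H2 (0.29), NR1H3 (0.073), PHGDH (0.055), SCD (-0.32), SPHK1 (0.65) and TUBE1 (-0.20). Depth is unknown, and 1 library a side gives no replicate check.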
